A study of Mus musculus with 16 samples.

Results

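The cytochrome P450 family 2 genes of mouse liver were examined in 16 livers from 4 genotypes of CerS2, the gene of ceramide synthase 2. Members were all rows of the deposited value table whose transcript identifier maps to a symbol that starts with Cyp2 and a letter. This gave 71 probes of 60037, standing for 48 genes, and the probe with the highest mean over the 16 arrays stood for each gene. Of the 48 genes, 46 were measured well enough to be tested, among 31480 genes tested in all. The other 2, Cyp2c65 and Cyp2j8, were well above background on 2 and 0 arrays.

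Total RNA came from 25 mg of liver of male mice aged 6 weeks, with 1 Agilent 1-colour array per mouse. The 4 groups had 4 mice each, and the labels call the conditions HA (H/A), delHox (Del), delneo (Flox) and WT (wild type). All groups shared a mixed background of 75% C57BL/6 and 25% SV129. The labels do not say what each allele contains, which cells carry it or how many founders a line had. They name no litters, so p-values measure the spread between these mice. Mice are numbered 1 to 4 within a group only to tell them apart.

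Enzymes of the CYP2 family sit in the endoplasmic reticulum, carry a haem group and receive electrons from cytochrome P450 reductase. They insert 1 oxygen atom into steroids, fatty acids, bile acids, alcohols, drugs and other foreign compounds. In rodent liver the family has expanded into clusters of closely related genes, of which Cyp2c and Cyp2d are the largest, and many members differ between the sexes or between the zones around the central and portal veins. CerS2 is the enzyme that makes ceramides with very long acyl chains, which are abundant in liver.

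Because neighbouring Cyp2c genes are near copies, the array's probes for them partly overlap in sequence. The probes of Cyp2c67, Cyp2c68 and Cyp2c69, all on chromosome 19, are shown because their values are read as separate genes below. Capitals mark the bases at which a probe differs from that of Cyp2c69, over the stretch that overlaps it.
Cyp2c69: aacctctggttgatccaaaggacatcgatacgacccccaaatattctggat
Cyp2c68: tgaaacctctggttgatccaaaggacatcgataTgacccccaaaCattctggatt
Cyp2c67: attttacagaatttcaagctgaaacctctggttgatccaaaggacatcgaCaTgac
The Cyp2c68 and Cyp2c69 probes have 49 equal bases over an overlap of 51, those of Cyp2c67 and Cyp2c68 have 36 over 37, and those of Cyp2c67 and Cyp2c69 have 32 over 34. RNA of 1 of these genes may therefore bind the probe of another, and their levels were not independent measurements. Smaller overlaps joined the probes of Cyp2c29 and Cyp2c67 (22 of 24 bases equal), Cyp2c23 and Cyp2c37 (30 of 35) and Cyp2d11 and Cyp2d37-ps (21 of 23). Probes that do not stand for a gene overlapped others too. The second Cyp2c54 probe overlapped those of Cyp2c67 (42 of 46), Cyp2c29 (31 of 36), Cyp2c68 (25 of 27), Cyp2c69 (22 of 24) and Cyp2c65 (20 of 22). A Cyp2c50 probe overlapped that of Cyp2c55 (41 of 49). Only overlaps without gaps and with most bases equal over their whole length were listed. Weaker likeness, as between the Cyp2d12 and Cyp2d13 probes, was left out.

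A RefSeq table of promoters (GRCm38.p6) held 38 of the 48 members. The 250 bases before each start were searched on both strands for CAAAGTCCA, a core of sites at which the liver factor HNF4 alpha is known to bind. It occurred in 6 members, all of them Cyp2c genes (Cyp2c40, Cyp2c65, Cyp2c67, Cyp2c68, Cyp2c69 and Cyp2c70), and in 0.384% of 32851 promoters of the same length. The windows of the 5 that could be tested are shown, and their RNA values are given below. They are written 5′ to 3′ on the gene's strand, with the core in capitals.
Cyp2c40: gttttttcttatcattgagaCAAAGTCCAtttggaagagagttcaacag
Cyp2c67: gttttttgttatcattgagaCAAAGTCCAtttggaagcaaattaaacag
Cyp2c68: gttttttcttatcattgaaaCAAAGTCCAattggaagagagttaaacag
Cyp2c69: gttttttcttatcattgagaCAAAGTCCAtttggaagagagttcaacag
Cyp2c70: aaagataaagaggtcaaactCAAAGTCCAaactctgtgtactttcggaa
All 5 lie on the minus strand, at chr19:39812831-39812879 for Cyp2c40, chr19:39649139-39649187 for Cyp2c67, chr19:39741150-39741198 for Cyp2c68, chr19:39886816-39886864 for Cyp2c69 and chr19:40187322-40187370 for Cyp2c70. The shorter core CAAAGTC, which the longer one contains, was found in 13 members and in 3.84% of promoters. Among these 13 were Cyp2a4, Cyp2a5 and Cyp2b13, whose means lay above WT in HA and delHox without passing. Other motifs were searched too. The TATA box (TATAAA) was found in 18 of the 38 members and in 12.4% of promoters. A C/EBP motif (TTGCNNAA) was found in 10 members and in 9.56% of promoters, and a STAT motif (TTCNNNGAA) in 2 and 7.02%. A match describes the letters and is not evidence of binding.

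In the unscaled scanner signal, the 75th percentile over spots ranged from 109.3 to 173.1 in HA, 91.2 to 114.8 in delHox, 86.0 to 111.6 in delneo and 89.7 to 98.8 in WT. The authors' values were scaled so that all arrays share 1 median. The first principal component over all genes held 43% of the variance and ran from -72.7 to -19 in HA and from -92.6 to -32.2 in delHox, against 46.6 to 65.1 in delneo and 11 to 59.4 in WT, where WT mouse 2 lay nearest to the mutants. Of 9 measured hepatocyte markers, 1 rose (Cps1) and 1 fell (Fga) in HA against WT, where 7.08% of all genes rose and 2.97% fell. Their summed linear level was 293000 to 330000 in HA, 301000 to 323000 in delHox, 303000 to 323000 in delneo and 301000 to 313000 in WT. In whole liver, fewer cells of a type and less RNA per cell cannot be told apart.

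Many Cyp2 genes, mostly of the Cyp2c and Cyp2d clusters, were lower in HA and delHox livers. All differences are on the log2 scale, where -1 stands for a halved level, and "fell" or "rose" is written only of genes whose p from limma, adjusted by the Benjamini-Hochberg method across all 31480 genes, was under 0.05. In HA against WT, 15 of 46 tested members fell (32.6%), against 2.97% of all genes. None rose, against 7.08% of all genes, and 1 member was higher and 23 were lower at an unadjusted p under 0.05. The median difference was -0.43 over members and -0.09 over all genes.

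In delHox against WT, 20 of 46 members fell (43.5%) and 1 rose (2.17%), against 4.38% of all genes lower and 8.85% higher. The median difference was -0.57 over members and -0.11 over all genes. In delHox against delneo, 20 members fell (43.5%), against 18.2% of all genes, and 0 rose, against 16.6%, with 3 members higher at an unadjusted p under 0.05 in limma. The median there was -0.44 over members and -0.14 over all genes. These comparisons share the WT or the delHox arrays, so they are not independent of each other.

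In delneo against WT, limma called 0 members in either direction. At an unadjusted p under 0.05, 2 were higher (Cyp2j9 and Cyp2j11) and 2 lower (Cyp2c70 and Cyp2s1, the last not well above background on any delneo array), and over all genes 0.00318% were called higher and 0.0191% lower. In HA against delHox it also called 0 members. There, 3 members were higher (Cyp2c37, Cyp2d11 and Cyp2d34) and 1 lower (Cyp2c38) at an unadjusted p under 0.05, with 0.00953% of all genes called higher and 0.00318% lower.

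The HA count rested on single mice. It was 6 without HA mouse 3, 9 without WT mouse 1 or WT mouse 3 and 7 without WT mouse 4, while the delHox counts of members lower stayed between 15 and 22. Without scaling between arrays, the median of all genes in HA against WT moved to 0.37 and that of members to 0.10. In that setting none of the 15 HA calls remained and 8 members were called higher, and 98.7% of all calls were higher in HA, against 70.4% with the authors' scaling. Relative to all genes, the members' median was then lower by 0.27, and by 0.33 with the authors' scaling. For delHox against WT the share of calls that were higher was 80.5% without scaling and 66.9% with it, and for delHox against delneo it was 78.0% and 47.8%.

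**Figure D1:**
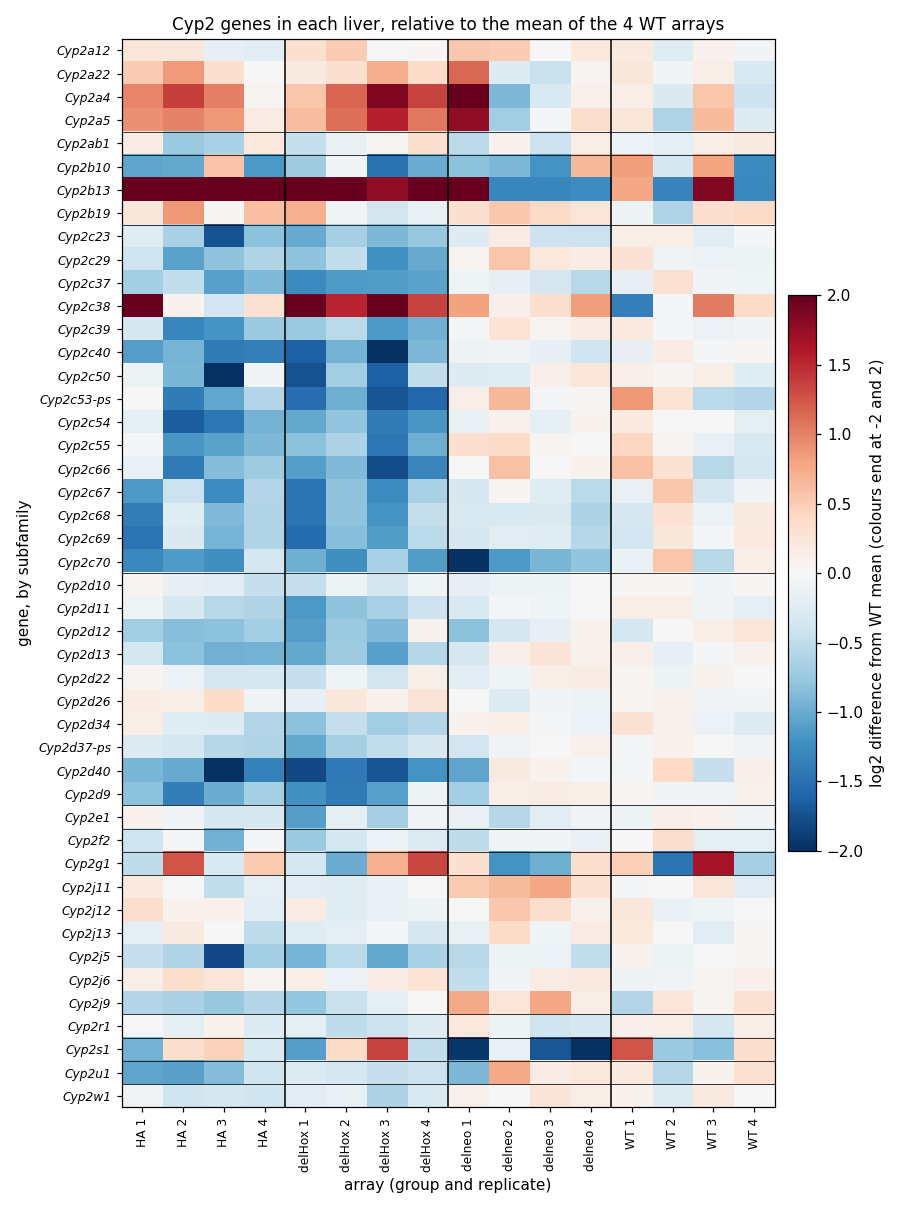
Heat map of the 46 tested Cyp2 genes (rows, grouped by subfamily) in 16 livers (columns, in the groups HA, delHox, delneo and WT). Colour gives each array's log2 level minus the mean of the 4 WT arrays of that gene and ends at -2 and 2. Most Cyp2c rows are blue in HA and delHox, and the Cyp2b13 row is red there. The Cyp2c38 row is red in delHox and, among HA livers, clearly so only in mouse 1. Delneo mouse 1 stands apart in the Cyp2a rows and Cyp2b13.

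Each slide held 8 arrays of all 4 genotypes: the first had 3 HA, 1 delHox, 2 delneo and 2 WT arrays and the second 1 HA, 3 delHox, 2 delneo and 2 WT. Within the first slide alone the median Cyp2c difference was -1.03 in HA and -1.34 in delHox against WT. Within the second it was -0.64 in HA and -0.85 in delHox. With the slide as a block, the medians were -0.85 in HA and -1.06 in delHox, and 12 members fell in HA and 22 in delHox. For the Cyp2d genes the medians in HA were -0.45 within the first slide and -0.52 within the second, and in delHox -1.0 and -0.48.

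The Cyp2c genes, on chromosome 19, include most of the mouse epoxygenases, enzymes that turn arachidonic acid into epoxides. Of 15 tested, 10 fell in HA against WT, 13 fell and 1 rose in delHox against WT, and 11 fell in delHox against delneo. The median difference was -0.79, -1.01 and -0.96 in these comparisons. In delHox against WT the 4 arrays of 1 group lay entirely apart from the 4 of the other for all 15 Cyp2c genes, 14 of them lower. Over all 46 members this held for 22 lower (47.8%) and 1 higher, and over all 31480 genes for 7.24% lower and 10.6% higher.

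Cyp2c40, a hydroxylase of arachidonic acid that is higher in female mouse liver, had log2 levels of 10.81, 10.97, 10.49 and 10.54 in HA and 10.28, 10.96, 9.88 and 11.01 in delHox livers. It had 11.80, 11.84, 11.75 and 11.51 in delneo and 11.74, 12.06, 11.88 and 11.95 in WT livers. Every HA and delHox liver lay below every delneo and WT liver. The difference was -1.20 in HA against WT (95% interval -1.65 to -0.75, adjusted p = 0.00299 in limma), a level of 0.435 times that of WT. It was -1.38 in delHox against WT (adjusted p = 0.000733) and -1.20 in delHox against delneo (adjusted p = 0.00146). Within the slides Cyp2c40 was -1.14 and -1.37 in HA and -1.62 and -1.30 in delHox against WT.

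Cyp2c37, an arachidonic acid hydroxylase of the pericentral zone, had 10.54, 10.72, 10.14 and 10.34 in HA and 9.95, 10.09, 10.11 and 10.15 in delHox, against 11.05, 11.53, 11.17 and 11.13 in WT. All HA and delHox livers lay below all WT livers, and the 4 delHox livers lay close together. It fell by 0.79 in HA (adjusted p = 0.00444) and by 1.14 in delHox (interval -1.46 to -0.83, adjusted p = 0.0002), the smallest adjusted p of any member against WT in limma. Against delneo (11.13, 11.06, 10.88 and 10.67) it fell by 0.86 in delHox (adjusted p = 0.00125).

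Cyp2c29, a pericentral epoxygenase, and Cyp2c39, which is known as a retinoic acid hydroxylase, had similar profiles. Cyp2c29 had 12.91, 12.24, 12.51 and 12.72 in HA and 12.51, 12.82, 12.10 and 12.31 in delHox, against 13.60, 13.25, 13.20 and 13.21 in WT. Its 4 delneo livers, at 13.37, 13.87, 13.53 and 13.47, lay among or above those of WT. The difference from WT was -0.72 in HA (adjusted p = 0.0211) and -0.88 in delHox (adjusted p = 0.0049), and delHox lay 1.13 below delneo (adjusted p = 0.000707, log2 difference -1.13). Cyp2c39 fell by 0.89 in HA (adjusted p = 0.0101) and by 0.84 in delHox (adjusted p = 0.00976), again with no overlap with WT.

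Cyp2c54, also an epoxygenase, had 11.44, 9.97, 10.18 and 10.67 in HA and 10.60, 10.83, 10.23 and 10.46 in delHox, against 11.82, 11.62, 11.63 and 11.42 in WT. HA mouse 1 lay just above the lowest WT liver, and the other HA livers and all delHox livers lay below every WT liver. The differences were -1.06 in HA (adjusted p = 0.0142) and -1.09 in delHox (adjusted p = 0.00864). Cyp2c55, which hydroxylates arachidonic acid and is also found in colon, averaged 8.77 ± 0.51 in HA, 8.59 ± 0.35 in delHox, 9.75 ± 0.18 in delneo and 9.56 ± 0.30 in WT (SD, n = 4 each). It fell by 0.79 in HA (adjusted p = 0.0477) and by 0.97 in delHox (adjusted p = 0.0149), and the HA call was lost in 19 of 27 alternative settings.

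Cyp2c66 and the pseudogene Cyp2c53-ps showed the lowest delHox values of the cluster relative to delneo. Cyp2c66 had 8.27, 8.50, 7.61 and 8.06 in delHox, against 9.37, 9.97, 9.39 and 9.45 in delneo and 9.97, 9.68, 8.82 and 9.04 in WT. It fell by 1.27 against WT (adjusted p = 0.00991) and by 1.44 against delneo (adjusted p = 0.00315), while HA (9.24, 7.97, 8.51 and 8.66) differed from WT by -0.78 without passing (adjusted p = 0.0869). Cyp2c53-ps averaged 5.03 ± 0.32 in delHox, against 6.68 ± 0.32 in delneo and 6.48 ± 0.70 in WT (SD, n = 4 each). Its difference of -1.65 from delneo was the lowest of all members in any comparison, and it was -1.45 against WT (adjusted p = 0.0103).

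The near copies Cyp2c67, Cyp2c68 and Cyp2c69, whose probes are printed above, were lower by similar amounts. In HA against WT, Cyp2c67 fell by 0.86 (adjusted p = 0.0353) and Cyp2c69 by 0.82 (adjusted p = 0.0443), and Cyp2c68 differed by -0.78 (adjusted p = 0.0515). The Cyp2c69 call in HA was lost with the slide as a block (-0.77, adjusted p = 0.0631) and in 19 of 27 alternative settings in all. In delHox against WT they fell by 1.05, 0.99 and 1.01 in the order Cyp2c67, Cyp2c68 and Cyp2c69 (adjusted p = 0.00956, 0.0141 and 0.0133 in limma). Cyp2c69, which is higher in female liver, had 11.16, 12.34, 11.71 and 12.03 in HA and 11.09, 11.78, 11.52 and 12.09 in delHox, against 12.25, 12.86, 12.60 and 12.82 in WT. HA mouse 2 lay within the WT range for it.

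Within HA the Cyp2c genes did not all order the mice alike. HA mouse 1 had the highest HA level for 8 of the 15 genes, among them Cyp2c29, Cyp2c39, Cyp2c54, Cyp2c55, Cyp2c66 and Cyp2c53-ps, and the lowest for 3, Cyp2c68, Cyp2c69 and Cyp2c70. HA mouse 2 was the lowest for 6 genes and the highest for 5. The median Cyp2c level relative to the WT mean was -0.32 in HA mouse 1, -0.93 in mouse 2, -1.08 in mouse 3 and -0.61 in mouse 4. In delHox it was -1.11, -0.81, -1.22 and -0.96 in mice 1 to 4, against 0.10, 0.15, -0.12 and -0.06 in the WT mice, so every HA and delHox liver lay below every WT liver.

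Cyp2c70 makes muricholic acids, the bile acids typical of mice, by hydroxylating chenodeoxycholic acid. It had 10.82, 10.98, 10.88 and 11.77 in HA, 11.14, 10.88, 11.46 and 11 in delHox and 10.13, 10.97, 11.20 and 11.33 in delneo, against 11.98, 12.67, 11.55 and 12.25 in WT. It fell in HA (difference -1.0, adjusted p = 0.0394) and in delHox (difference -0.99, adjusted p = 0.0333). With the slide as a block the HA call was lost (-0.93, adjusted p = 0.057). The delneo livers all lay below WT too (difference -1.21, adjusted p = 0.71 in limma), and delHox differed from delneo by 0.21 (adjusted p = 0.564). The Cyp2c70 calls were among the least stable: leaving out any of 6 arrays of the groups compared ended the HA call, with differences of -1.05 to -0.81, and any of 6 ended the delHox call, with -1.04 to -0.81.

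Cyp2c38, an epoxygenase close to Cyp2c29 and Cyp2c39, was the only member that rose. It had 8.12, 7.01, 8.79 and 6.83 in delHox, 8.38, 5.56, 5.10 and 5.78 in HA and 6.28, 5.58, 5.82 and 6.32 in delneo, against 4.12, 5.44, 6.52 and 5.85 in WT. All delHox livers lay above all WT and delneo livers, and among HA livers only mouse 1 did. The difference in delHox against WT was 2.21 (interval 0.83 to 3.58, adjusted p = 0.0353), a level 4.62 times that of WT, and it was 1.69 against delneo (adjusted p = 0.0534). In HA against WT it was 0.73 (adjusted p = 0.436), and HA differed from delHox by -1.48 (adjusted p = 0.605). The Cyp2c38 call was lost without WT mouse 1 (1.75, adjusted p = 0.109), WT mouse 4 (2.33, adjusted p = 0.0585), delHox mouse 1 (2.06, adjusted p = 0.0753) or delHox mouse 3 (1.84, adjusted p = 0.127).

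The last members of the cluster were Cyp2c23 and Cyp2c50. Cyp2c23, also known as Cyp2c44 and an epoxygenase, averaged 8.48 ± 0.63 in HA, 8.52 ± 0.16 in delHox, 9.11 ± 0.28 in delneo and 9.35 ± 0.16 in WT (SD, n = 4 each). It fell by 0.86 in HA (adjusted p = 0.0348) and by 0.83 in delHox (adjusted p = 0.034) and differed by -0.59 between delHox and delneo (adjusted p = 0.0646). Cyp2c50, an epoxygenase of the pericentral zone, had 11.60, 10.78, 9.66 and 11.64 in HA and 9.95, 11, 10.06 and 11.21 in delHox, against 11.79, 11.72, 11.81 and 11.46 in WT. It differed from WT by -0.78 in HA (adjusted p = 0.162) and by -1.14 in delHox (adjusted p = 0.056), and fell by 1.09 against delneo (adjusted p = 0.0365). With the slide as a block Cyp2c50 passed in delHox against WT (-1.26, adjusted p = 0.0293).

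**Figure D2:**
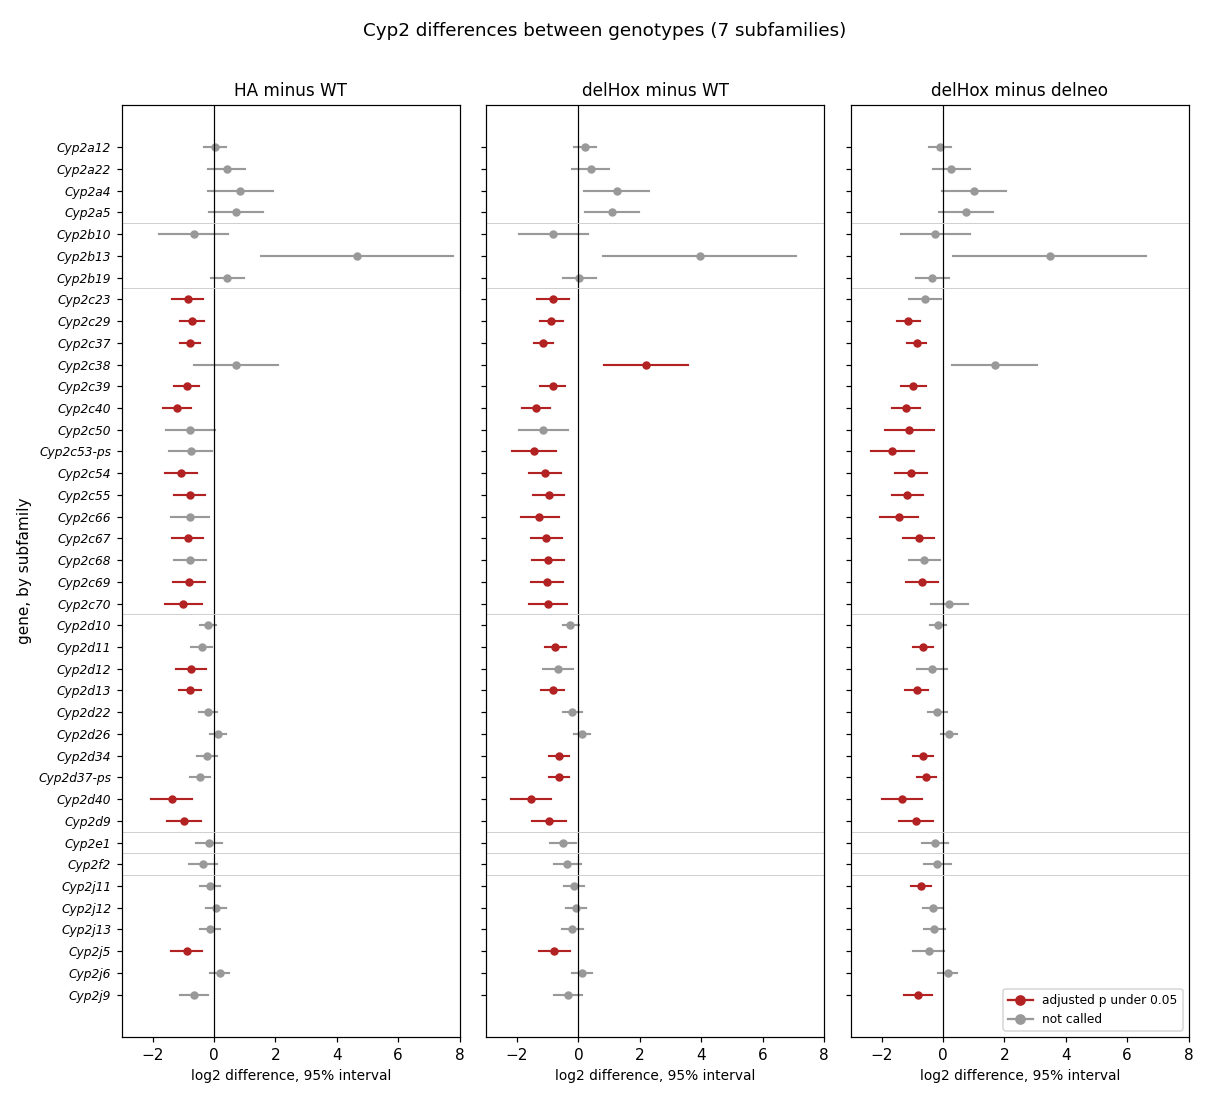
Differences of the tested Cyp2 genes of 7 subfamilies (rows) in HA minus WT, delHox minus WT and delHox minus delneo (panels, log2 scale), with lines for 95% intervals and red for an adjusted p under 0.05. The Cyp2c rows lie below 0 in all panels except Cyp2c38, at 0.73, 2.21 and 1.69, and Cyp2c70, at 0.21 in the panel against delneo.

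The Cyp2d genes, on chromosome 15, correspond to the human drug-metabolising gene CYP2D6. Of 10 tested, 4 fell in HA against WT, 6 fell in delHox against WT and 6 in delHox against delneo, with medians of -0.43, -0.65 and -0.59. Cyp2d9, the male-specific testosterone 16 alpha-hydroxylase, had 13.62, 13.06, 13.46 and 13.78 in HA and 13.24, 13.04, 13.36 and 14.35 in delHox, against 14.49, 14.40, 14.37 and 14.53 in WT. All 8 mutant livers lay below all 4 WT livers, delHox mouse 4 by a small margin. Cyp2d9 fell by 0.97 in HA (adjusted p = 0.0279) and by 0.95 in delHox (adjusted p = 0.0236). Of its delneo livers, mouse 1 had 13.77 and the other 3 had 14.57 to 14.60.

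Cyp2d40 had the lowest differences of the Cyp2d genes. Its levels were 10.95, 10.86, 9.60 and 10.51 in HA and 10.06, 10.43, 10.14 and 10.67 in delHox, against 11.83, 12.26, 11.41 and 11.96 in WT. No mutant liver reached a WT liver. It fell by 1.38 in HA (interval -2.04 to -0.72, adjusted p = 0.0124), a level of 0.383 times WT, and by 1.54 in delHox (adjusted p = 0.00461), 0.344 times WT. The same gene lay at 12.05, 11.94 and 11.82 in delneo mice 2 to 4 and at 10.81 in delneo mouse 1, and delHox fell by 1.33 against delneo (adjusted p = 0.007).

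Cyp2d13 fell in HA (difference -0.77, adjusted p = 0.0114), in delHox against WT (difference -0.84, adjusted p = 0.00474) and in delHox against delneo (difference -0.86, adjusted p = 0.00276). Cyp2d12 fell in HA only just (difference -0.75, adjusted p = 0.0499), and in delHox it differed by -0.66 (adjusted p = 0.0681), where delHox mouse 4 had 15.13 and the other 3 had 13.96 to 14.33. With the slide as a block both Cyp2d12 results changed sides, at -0.65 in HA (adjusted p = 0.0511) and -0.76 in delHox (adjusted p = 0.0178), and the HA call was lost in 16 of 27 alternative settings in all. Cyp2d11 fell by 0.76, Cyp2d34 by 0.64 and the pseudogene Cyp2d37-ps by 0.63 in delHox against WT (adjusted p = 0.00642, 0.0137 and 0.013 in limma). In HA these 3 differed from WT by -0.40, -0.23 and -0.45 without passing. Their difference between HA and delHox did not pass either.

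The Cyp2d genes with no call in any comparison were Cyp2d10, Cyp2d22 and Cyp2d26. Cyp2d22, the mouse enzyme often compared with CYP2D6, differed from WT by -0.19 in HA and -0.20 in delHox (adjusted p = 0.346 and 0.327 in limma). Cyp2d26 averaged 14.54 ± 0.19 in HA, 14.50 ± 0.19 in delHox and 14.40 ± 0.07 in WT (SD, n = 4 each). Cyp2d10 differed by -0.20 in HA and -0.26 in delHox by its brightest probe.

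Several genes had more than 1 probe, and these did not always pass together. Cyp2d10 had a second probe that differed by -1.03 in HA and -0.98 in delHox against WT (adjusted p = 0.00439 and 0.00403 over all 37814 probes in limma), against -0.20 and -0.26 for the probe used (adjusted p = 0.28 and 0.168). For Cyp2c50 the probe used did not pass against WT, whereas the other 2 did, at -1.49 and -0.57 in HA (adjusted p = 0.0202 and 0.0371) and -1.45 and -0.65 in delHox (adjusted p = 0.0167 and 0.0153). In Cyp2d12 all 3 probes were lower in delHox, by -1.40, -1.12 and -0.66, and the 2 dimmer ones passed (adjusted p = 0.0126 and 0.00153).

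The probes of Cyp2c54 differed by -1.06 and -1.08 in HA and by -1.09 and -1.51 in delHox, all 4 passing. The second of them, at -1.08 and -1.51, is the one that overlaps probes of near copies, so it may also read their RNA. For Cyp2c68, whose brightest probe gave -0.78 in HA, the other gave -1.01 (adjusted p = 0.0484). Cyp2a22 went the other way: its dimmer probe was higher in delHox by 0.81 against WT and by 0.80 against delneo (adjusted p = 0.0176 and 0.0122), where the probe used gave 0.40 and 0.27 (adjusted p = 0.327 and 0.455). Of the genes with several kept probes, Cyp2d26 alone had probes of opposite sign in HA and delHox against WT, at 0.14 and -0.06 in HA. Which transcripts each probe reads could not be searched here, so a difference between probes of a gene cannot be told apart from RNA of a near copy.

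**Figure D3:**
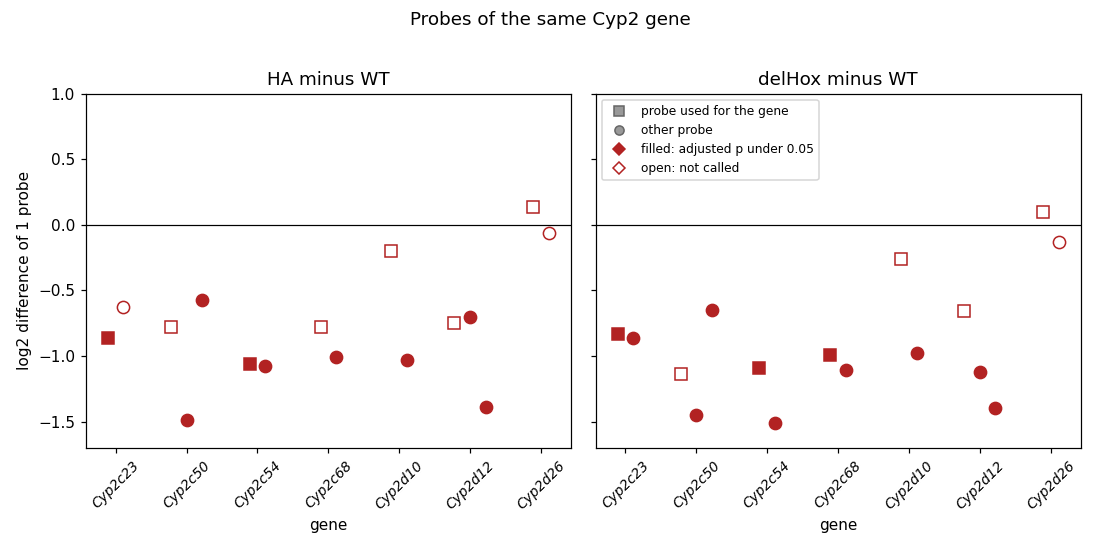
Log2 differences of each probe of 7 Cyp2 genes in HA minus WT and delHox minus WT (panels). Squares are the probes that stand for the genes, circles the other probes, and filled symbols passed an adjusted p under 0.05 over all probes. The second Cyp2d10 probe lies near -1 in both panels, well below the square.

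The Cyp2j genes, on chromosome 4, oxidise polyunsaturated fatty acids. Cyp2j5, an epoxygenase of liver and kidney, had 10.39, 10.25, 9.05 and 10.18 in HA and 9.93, 10.32, 9.83 and 10.20 in delHox, against 10.93, 10.76, 10.84 and 10.89 in WT. Every mutant liver lay below every WT liver, as did all delneo livers (10.30, 10.75, 10.73 and 10.37). Cyp2j5 fell by 0.89 in HA (adjusted p = 0.0279) and by 0.79 in delHox (adjusted p = 0.0393), and delHox against delneo gave -0.47 (adjusted p = 0.122).

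Cyp2j9 and Cyp2j11 passed only against delneo, at -0.82 (adjusted p = 0.0121) and -0.71 (adjusted p = 0.00502). Cyp2j11 had 5.10, 5.07, 5.17 and 5.32 in delHox, against 5.84, 5.95, 6.09 and 5.60 in delneo. Its WT livers had 5.28, 5.31, 5.55 and 5.10, so delneo lay above WT (difference 0.56, adjusted p = 0.802). For Cyp2j9, HA livers had 6.84 to 7.02 and WT livers 7.02, 7.84, 7.66 and 7.89 (difference -0.65, adjusted p = 0.0637). Cyp2j6, Cyp2j12 and Cyp2j13 differed by -0.33 to 0.18 in the 3 comparisons of HA and delHox above, and none passed.

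**Figure D4:**
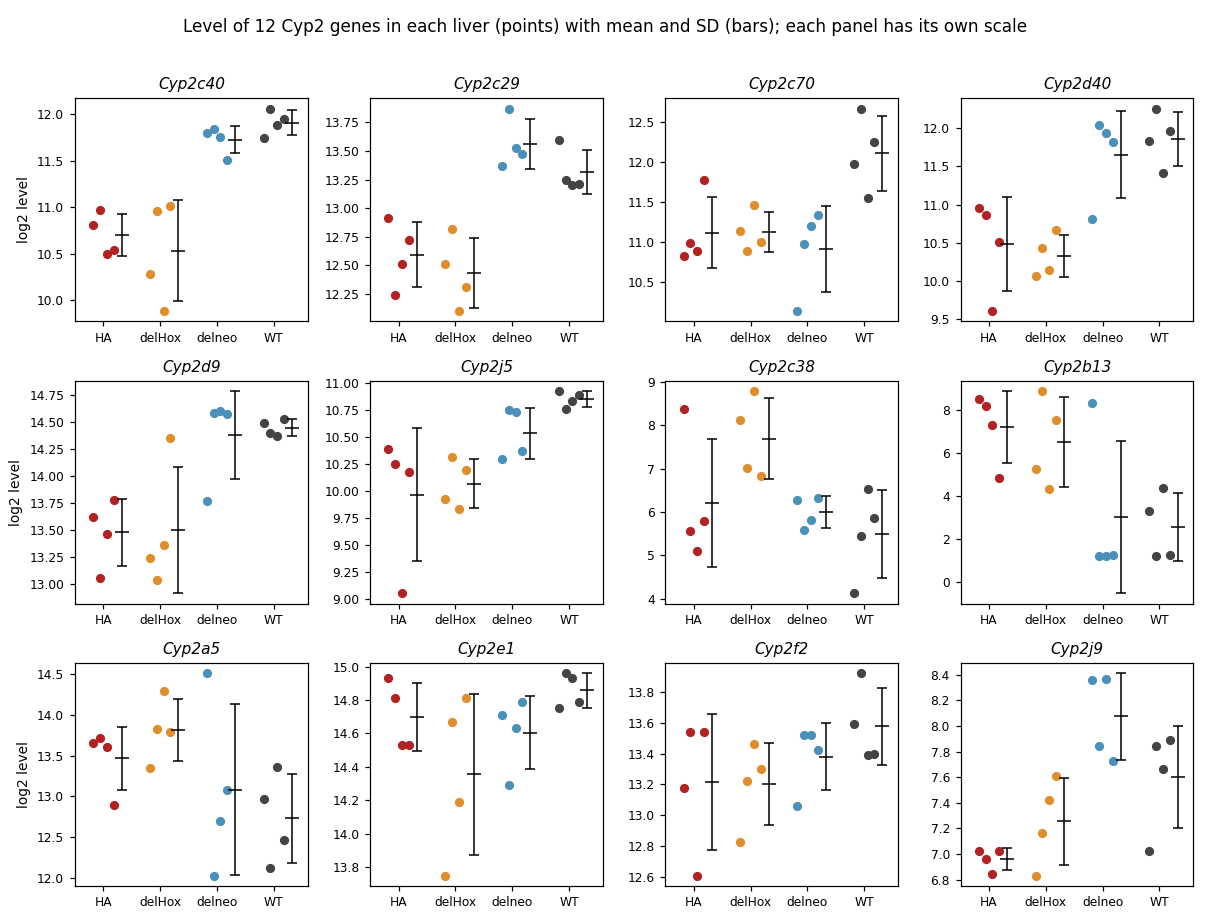
Log2 level of 12 Cyp2 genes in each liver (points, by genotype) with the mean and SD of 4 mice (bars), each panel on its own scale. Cyp2c40, Cyp2c29, Cyp2d40 and Cyp2j5 are lower in HA and delHox than in WT with no overlap, Cyp2c70 is lower in delneo too, and Cyp2b13 is high in 1 delneo liver, at 8.33.

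The Cyp2a and Cyp2b genes, on chromosome 7, gave no call in any of the 5 comparisons by their brightest probes. Cyp2b13, which is higher in female liver, had 8.53, 8.21, 7.30 and 4.83 in HA and 5.27, 8.87, 4.32 and 7.56 in delHox. It had 8.33, 1.24, 1.25 and 1.29 in delneo and 3.33, 1.22, 4.40 and 1.26 in WT, and it was well above background in 4 HA, 4 delHox, 1 delneo and 1 WT liver. HA lay above WT throughout, and delHox and WT overlapped. Since 3 of 4 WT arrays were not well above background, the size of the difference is not given as a measured value. Cyp2b13 entered the test through its HA and delHox arrays and did not pass in HA or delHox against WT (adjusted p = 0.0557 and 0.0842).

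The adjusted p of Cyp2b13 moved across 0.05 when single mice were left out, and nothing is read from it. In HA against WT it was 0.011 without delneo mouse 1, 0.0491 without HA mouse 4 and 0.0472 without delHox mouse 3, and in delHox against WT it was 0.0194 without delneo mouse 1. Mice outside the groups compared act only through the spread that limma estimates over all arrays. Its other 2 kept probes were well above background on no WT array and did not pass.

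Cyp2a5, the coumarin 7-hydroxylase, had 13.65, 13.72, 13.60 and 12.89 in HA and 13.35, 13.83, 14.29 and 13.79 in delHox. It had 14.51, 12.03, 12.70 and 13.08 in delneo and 12.97, 12.13, 13.36 and 12.47 in WT. The difference from WT was 0.73 in HA (adjusted p = 0.224) and 1.08 in delHox (adjusted p = 0.0909). Cyp2a4, a testosterone 15 alpha-hydroxylase whose sequence is nearly that of Cyp2a5, gave 0.86 (adjusted p = 0.229) and 1.24 (adjusted p = 0.0999). Delneo mouse 1 had the highest level of all 16 livers for both genes. Without it both passed in delHox against WT (Cyp2a5 1.08, adjusted p = 0.0283, and Cyp2a4 1.24, adjusted p = 0.0242). It is in neither of those groups and acts there only through the spread that limma estimates over all arrays. In delHox against delneo, leaving it out moved Cyp2a4 from 1.01 (adjusted p = 0.113) to 1.61 (adjusted p = 0.00799). Cyp2a5 moved from 0.74 (adjusted p = 0.163) to 1.21 (adjusted p = 0.0193).

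Cyp2b10, the classical target of the nuclear receptor CAR, was dim, at 4.20 ± 0.82 in HA, 4.04 ± 0.61 in delHox, 4.29 ± 0.83 in delneo and 4.86 ± 1.01 in WT (SD, n = 4 each). It differed from WT by -0.66 in HA (adjusted p = 0.379) and -0.82 in delHox (adjusted p = 0.275). Cyp2a12, Cyp2a22 and Cyp2b19 differed from WT by 0.02 to 0.43 in these comparisons by their brightest probes and were not called.

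Cyp2e1, the pericentral enzyme of ethanol and acetaminophen metabolism, was bright in all livers. It had 14.93, 14.81, 14.53 and 14.53 in HA and 13.75, 14.67, 14.19 and 14.81 in delHox, against 14.75, 14.96, 14.93 and 14.79 in WT. It differed by -0.16 in HA (interval -0.58 to 0.26, adjusted p = 0.587) and by -0.50 in delHox (interval -0.93 to -0.08, adjusted p = 0.0975). Cyp2f2, which is higher around the portal vein, differed by -0.36 in HA and -0.37 in delHox (adjusted p = 0.237 and 0.217 in limma).

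The remaining members had at most 1 call each. Cyp2w1, known from fetal gut and tumours, fell by 0.44 in delHox against delneo (adjusted p = 0.022). Cyp2u1, which hydroxylates long-chain fatty acids, had 6.60, 6.57, 6.79 and 7.26 in HA, against 7.85, 7.08, 7.73 and 7.96 in WT, a difference of -0.85 that did not pass (adjusted p = 0.0642). Cyp2r1, the vitamin D 25-hydroxylase, differed from WT by -0.09 in HA and -0.35 in delHox (adjusted p = 0.711 and 0.131). Cyp2g1, an olfactory enzyme, Cyp2s1, an enzyme of surface epithelia, and Cyp2ab1 were well above background on 5, 4 and 9 of 16 arrays and had no call.

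Grouped by known function, 12 arachidonic acid epoxygenases and hydroxylases of the Cyp2c and Cyp2j clusters were tested, of which 8 fell in HA, 8 fell and 1 rose in delHox against WT and 8 fell in delHox against delneo. Their median difference was -0.79, -0.86 and -0.91, and the rise was Cyp2c38. Of 6 pericentral members, 3 fell in HA (Cyp2c29, Cyp2c37 and Cyp2c54), the same number in delHox against WT and 4 against delneo, with medians of -0.75, -0.99 and -0.95. All these falls were of Cyp2c genes. Outside that cluster, Cyp2a5 differed from WT by 0.73 in HA and 1.08 in delHox and Cyp2e1 by -0.16 and -0.5, and neither passed. Of 5 members that are higher in female liver, 2 fell in HA and 2 in delHox against WT, Cyp2c40 and Cyp2c69. The Cyp2c69 probe is nearly that of Cyp2c68, so its fall may be that of a near copy. Its HA call was lost in 19 of 27 alternative settings. The other female-biased members did not pass: the means of Cyp2a4 and Cyp2b13 lay above WT and that of Cyp2b10 below it. Single livers of Cyp2a4 and Cyp2b10, and of Cyp2b13 in delHox, overlapped WT. Of 2 members higher in male liver, Cyp2d9 fell and Cyp2u1 did not pass. Over all genes, 2.97% fell in HA and 4.38% in delHox against WT, and 18.2% in delHox against delneo. These lists overlap and were drawn up with earlier results of the data known.

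Genes whose products serve the Cyp2 enzymes were read from lists. Beside their counts against WT stand the shares over all genes: 7.08% rose and 2.97% fell in HA, and 8.85% and 4.38% in delHox. Por, the reductase that passes electrons to all microsomal P450 enzymes, had 11.67, 11.26, 11.92 and 10.63 in HA and 9.85, 10.18, 10.52 and 10.92 in delHox, against 11.13, 10.21, 11.48 and 10.81 in WT, and did not pass in either (adjusted p = 0.369 and 0.293). Of 8 electron partners and epoxide hydrolases, 2 rose in HA, Cyb5a (0.57, adjusted p = 0.0211) and Ephx1 (1.00, adjusted p = 0.00103), and 1 rose in delHox, Ephx1 (1.05, adjusted p = 0.000427). Ephx2, the soluble hydrolase that opens fatty acid epoxides, differed by -0.18 in HA and -0.35 in delHox against WT and fell by 0.49 against delneo (adjusted p = 0.0195). Of 11 genes of haem synthesis and breakdown, 1 rose and 1 fell in HA and 2 rose in delHox against WT. Hmox1, which degrades haem, rose by 1.89 in HA and 1.84 in delHox against WT (adjusted p = 0.0052 and 0.00412). The synthesis enzyme Uros fell by 0.44 in HA (adjusted p = 0.0337), and the synthesis enzyme Alad rose by 0.79 in delHox (adjusted p = 0.00345).

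Of 25 tested regulators of Cyp2 genes, 2 rose and 2 fell in HA and in delHox against WT, with a median of 0.01 in HA and -0.08 in delHox. Over all genes, 7.08% rose and 2.97% fell in HA, and 8.85% rose and 4.38% fell in delHox. The number of regulators that rose was thus near the share over all genes. The growth hormone receptor Ghr fell by 0.80 in HA and 1.01 in delHox (adjusted p = 0.0326 and 0.00689), with 9.89, 9.44, 8.88 and 9.50 in HA, 8.88, 9.32, 8.96 and 9.69 in delHox and 10.34, 10.26, 10.13 and 10.17 in WT. Onecut1 (HNF6) fell by 2.42 in HA and fell by 2.74 in delHox (adjusted p = 0.0333 and 0.0138), with 7.56 to 9.97 in HA, 7.56 to 10.08 in delHox and 9.94 to 12.04 in WT, so that 1 WT liver overlapped the mutants. Ahr rose by 0.96 in HA and 1.29 in delHox (adjusted p = 0.00959 and 0.000907).

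The nuclear receptors Nr1i3 (CAR), at -0.13 and -0.05, Nr1i2 (PXR), at 0.45 and 0.36, and Hnf4a, at -0.09 and -0.23, were not called in HA or delHox against WT. Of 19 known CAR and PXR targets outside the family, 7 rose and 2 fell in HA and 7 rose and 3 fell in delHox against WT. The shares over all genes were 7.08% risen and 2.97% fallen in HA and 8.85% and 4.38% in delHox. Cyp3a11, the main steroid and drug hydroxylase of mouse liver, had 15.09 to 15.37 in HA and 14.90 to 15.26 in delHox, against 13.14 to 13.51 in WT. It rose by 1.97 in HA and 1.83 in delHox (adjusted p = 5.65e-05 and 5.26e-05), opposite in sign to 14 of the 15 Cyp2c genes in HA and in delHox.

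Markers of other liver cells were read beside these results. Over all genes, 7.08% rose in HA and 8.85% in delHox against WT. Of 11 Kupffer cell and macrophage markers, 8 rose in HA and 7 in delHox against WT, with medians of 1.21 and 0.95, and their summed linear level was 9180 to 18900 in HA, 10100 to 11300 in delHox, 4840 to 7210 in delneo and 4120 to 7910 in WT. Of 5 neutrophil markers, 2 rose in HA and 1 in delHox against WT, with list medians of 0.4 and -0.18. Their summed level was 459 to 912 in HA, 398 to 475 in delHox, 289 to 392 in delneo and 242 to 369 in WT. None of 5 cholangiocyte, 5 lymphocyte, 8 stellate cell and fibroblast or 7 endothelial markers passed against WT in limma. The cholangiocyte markers summed to 254 to 555 in HA, 294 to 1080 in delHox, 210 to 246 in delneo and 169 to 401 in WT. In delHox against delneo, 16.6% of all genes rose and 18.2% fell, and 6 Kupffer cell and macrophage markers rose and 2 fell (median 0.87). Of the neutrophil markers 1 rose, with a list median of -0.37. Of the cholangiocyte markers 1 rose (Sox9, 1.09, adjusted p = 0.0169 in limma). These single rises were near the share over all genes. Of the stellate cell and fibroblast markers 3 rose (Col1a1, Acta2 and Dcn, list median 0.42). The stellate cell and fibroblast markers summed to 9350 to 11700 in delHox and 8240 to 8800 in delneo. No lymphocyte or endothelial marker passed there. The part of these cells in the Cyp2 differences was not tested.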

How the data were processed

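Liver RNA of 16 mice was measured on Agilent 1-colour arrays. Values in the deposited table are on a log2 scale. All 16 columns share 1 median, as after quantile normalisation by the authors. The scanner files hold intensity values, background-subtracted within each array by Agilent Feature Extraction per the file headers. The submitters' processing notes name Agilent Feature Extraction 11 and Partek. For 6 of 16 samples the listed scanner file lay at another slide position than the label. Each of the 16 table columns matched best the file at the label's place (r 0.885 to 0.996), against -0.3 to 0.168 for those 6 listed files, so the table by sample was used, and detection flags were read from the label-paired files. Probes were named through RefSeq accessions (GRCm38.p6, 36264 of 60037 named). The array design names an older assembly, so no probe coordinates are given. No probe was saturated.

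A probe was kept if 4 or more arrays showed it well above background (37814 probes), and the brightest stood for each gene (31480 genes). All 16 arrays entered 1 limma 3.58.1 model (R 4.3.3) with 5 comparisons and Benjamini-Hochberg adjustment over all genes. The number of arrays limits the precision. Intervals are 95%, for single genes. Summed levels are sums of 2 raised to the log2 level. The procedure was tested on simulated data. Alternatives were other scalings, background correction, filters, probe rules and moderation, the slide, 2-group fits and leaving out each array. Every member may be named, and other genes come from fixed lists of partners, regulators, CAR and PXR targets and cell markers. The members and lists were chosen with earlier results of these data known. The targeted gene was not analysed here.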

Additional observations from a re-analysis of the deposited data

Results flagged for a closer look

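In 12 of 184 groups of 4 livers (46 genes in 4 genotypes, 6.52%), 1 liver lay far from the other 3, with a gap to the nearest other liver above Dixon's 95% critical value. Chance alone flags about 1 in 20 such groups. In HA these were mouse 4 for Cyp2a5, at 12.89 against 13.60 to 13.72 in the others, mouse 3 for Cyp2b10, at 5.43 against 3.71 to 3.84, mouse 3 for Cyp2j5, at 9.05 against 10.18 to 10.39, and mouse 1 for Cyp2w1, at 8.35 against 8.02 to 8.07. In delneo they were mouse 1 for Cyp2b13, at 8.33 against 1.24 to 1.29, and for Cyp2d9, at 13.77 against 14.57 to 14.60. Delneo mouse 2 stood apart for Cyp2c66, at 9.97 against 9.37 to 9.45, and for Cyp2s1, at 3.05 against 1.20 to 1.48, and delneo mouse 4 for Cyp2c68, at 12.44 against 12.75 to 12.77. In WT they were mouse 1 for Cyp2c29, at 13.60 against 13.20 to 13.25, mouse 3 for Cyp2d10, at 14.21 against 14.29 in each of the others, and mouse 3 for Cyp2r1, at 8.11 against 8.56 to 8.57.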

How the results depend on the processing

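No member that was called in either setting turned its sign under the alternatives run. In HA against WT, where 15 members fell and 0 rose, no member fell with the scanner files as listed, without scaling or within either slide, 9 fell without the filter on dim probes, and 8 fell in the fit of these 2 groups alone. Without scaling 8 members rose, and in the fit of 2 groups 1 rose (Cyp2b13, at background in most WT arrays). In delHox against WT, where 20 fell and 1 rose, 0 fell and 0 rose with the files as listed and within slide 1, while 7 fell without scaling and 5 within slide 2. The rise of Cyp2c38 was lost (0 rose) without the filter and with trend and robust moderation, and 4 members rose in the fit of 2 groups. In delHox against delneo, where 20 fell and 0 rose, 0 fell with the files as listed and within slide 1, 6 fell without scaling and 9 within slide 2, while 3 rose within slide 2 and 1 in the fit of 2 groups. Leaving out 1 array at a time gave 6 to 16 lower and 0 to 1 higher members in HA against WT, 15 to 21 lower and 0 to 4 higher in delHox against WT, and 15 to 22 lower and 0 to 4 higher in delHox against delneo. The 4 higher in each came without delneo replicate 1 and include Cyp2b13, then at background on every delneo array. The comparisons of delneo with WT and of HA with delHox kept 0 called members in all settings run. The listed files lie at other places than the labels for 6 samples, and a single slide leaves 1 to 3 arrays a group. The cause of the other changes was not tested. No paired analysis was possible because the labels give no replicate numbers and the numbers used here only follow accession order. Signal over background limits Cyp2c65, Cyp2j8, Cyp2g1, Cyp2s1 and Cyp2b13, which were at background on most or many arrays.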

Other observations

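Delneo mouse 1 departed from the other 3 delneo livers in several members at once. It had the highest delneo level of Cyp2a4 (14.55, against 11.63 to 12.62), Cyp2a5 (14.51, against 12.03 to 13.08) and Cyp2b13 (8.33, against 1.24 to 1.29). It had the lowest delneo level of Cyp2d40 (10.81, against 11.82 to 12.05), Cyp2d9 (13.77, against 14.57 to 14.60), Cyp2u1 (6.76, against 7.80 to 8.42) and Cyp2c70 (10.13, against 10.97 to 11.33). Its Cyp2d levels were the lowest of the group for 8 of 10 genes. Its Cyp2c levels were the lowest for 5 of 15, with a median of -0.11 relative to the WT mean. On the first principal component over all genes it lay at 52.7, within the delneo range of 46.6 to 65.1. Outside the family it had the highest delneo level of Cyp3a11 (14.33, against 13.27 to 13.36) and the lowest of Ghr (9.57, against 10.09 to 10.29) and Onecut1 (9.10, against 10.62 to 11.68). These genes were picked after their values were seen.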
